A study of Mus musculus with 2 samples.

Results

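The genes described here are Atf4, which encodes a transcription factor of the amino acid and stress response, and 9 genes known as its targets. The targets are Asns, Trib3, Chac1, Phgdh, Psat1, Psph, Shmt2, Mthfd2 and Slc7a11. Apart from Trib3, which encodes a pseudokinase, they are genes of amino acid metabolism and transport. The 10 genes were named as a list and found by symbol, and all 10 were among the 21905 genes in both libraries. The libraries held bone resident cells from femurs and tibias of 12-week-old female mice, which were digested with collagenase, depleted of CD45+, CD71+ and Ter119+ cells and profiled by droplet 3′ single-cell RNA sequencing. Veh was 1 library from vehicle-treated mice and Doxo was 1 library from mice given doxorubicin (10 mg/kg), a chemotherapy drug that damages DNA, and collected at 96 h. The strain used for sequencing and the number of mice behind each library are not given in the sources used here. With 1 library per condition no difference between Veh and Doxo could be tested, and every interval below covers counting error only.

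ATF4 is controlled largely at the step of translation: when amino acids run short or proteins misfold, kinases phosphorylate the initiation factor eIF2, most translation slows and the Atf4 message is translated more, so the amount of Atf4 mRNA is no measure of the protein. With C/EBP partners the protein binds C/EBP-ATF response elements and switches on genes for making and importing amino acids, among them the enzymes that turn a glycolytic intermediate into serine and pass the one-carbon unit of serine to folate in mitochondria. In bone, ATF4 is known for its part in osteoblasts, which need amino acids for collagen.

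The promoters were searched for the core of the response element because it is the sequence feature that the targets are known to share. The letters searched were TGATGNAA, on both strands, in the RefSeq promoter windows of GRCm38.p6, which run from 250 bases before to 50 bases after each start. All 10 genes had a window, and 4 of them held a match, while 1219 of 27025 genes with a window did (4.51%). The matches are shown 5′ to 3′ on the strand of the gene, with the matched letters in capitals.
Asns, chr6:7693214-7693243, minus strand: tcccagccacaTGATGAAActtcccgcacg
Trib3, chr2:152344028-152344057, minus strand: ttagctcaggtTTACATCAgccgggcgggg
Chac1, chr2:119351038-119351067, plus strand: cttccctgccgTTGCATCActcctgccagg
Slc7a11, chr3:50443652-50443680, minus strand: cTGATGCAAacctggagaatTTGCATCAt
The Asns match began 23 bases before the RefSeq start, in sequence that GENCODE M21 annotates as exon and untranslated region. The Trib3 match, on the other strand, began 14 bases after the RefSeq start and upstream of all GENCODE transcripts of the gene. The Chac1 match, also on the other strand, lay 193 bases before the start. Slc7a11 had a pair of matches facing each other, 66 and 47 bases before its start. No match was found in the windows of Atf4, Phgdh, Psat1, Psph, Shmt2 and Mthfd2, which says only that these letters are not there.

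Each library held 2488 cells, with 24859695 unique molecular identifiers (UMIs) in Veh and 20792012 in Doxo. Clusters were named from marker genes, and "-like" marks a name given in this way. CAR-like cells (Cxcl12-abundant reticular cells of the marrow, 371 Veh and 428 Doxo) met 8 of 8 markers, bone and cartilage fibroblast-like cells (1105 and 1358) 8 of 10, arteriolar and endosteal fibroblast-like cells (413 and 249) 7 of 8, osteoblast-like cells (205 and 125) 5 of 8, chondrocyte-like cells (247 and 204) 8 of 8, and endothelial-like cells (103 and 69) 8 of 8. The series description states that CD31+ cells were also depleted, yet the endothelial-like cells, marked by Pecam1, which encodes CD31, remained. A cluster of 44 Veh and 55 Doxo cells led by Clic5 and Tmem196 was left unnamed. Markers of blood cells differed between the libraries: 6 erythroid markers summed to 401 counts per 1000000 UMIs (CPM) over all cells in Veh and to 2.89 in Doxo. In the CAR-like cells 8 immune markers summed to 1201 CPM in Veh and 96.5 in Doxo, 6 megakaryocyte markers to 128 and 14.5, and 6 erythroid markers to 516 and 3.56. There the 8 osteoblast markers summed to 9297 CPM in Veh and 2510.5 in Doxo. The part of these in the results below was not tested, other than by leaving out cells with at least 10 UMIs of blood cell markers.

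For each class and library, the UMIs of a gene were added up and divided by those of all genes to give CPM. A gene counts as higher or lower in Doxo when it had at least 20 UMIs over both libraries and its ratio of Doxo to Veh was at least 1.5-fold, and the share of all genes past the same rule is given as the background. The sums do not tell fewer expressing cells from less RNA in each cell. The plot of levels by class shows all 10 genes.

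**Figure D1:**
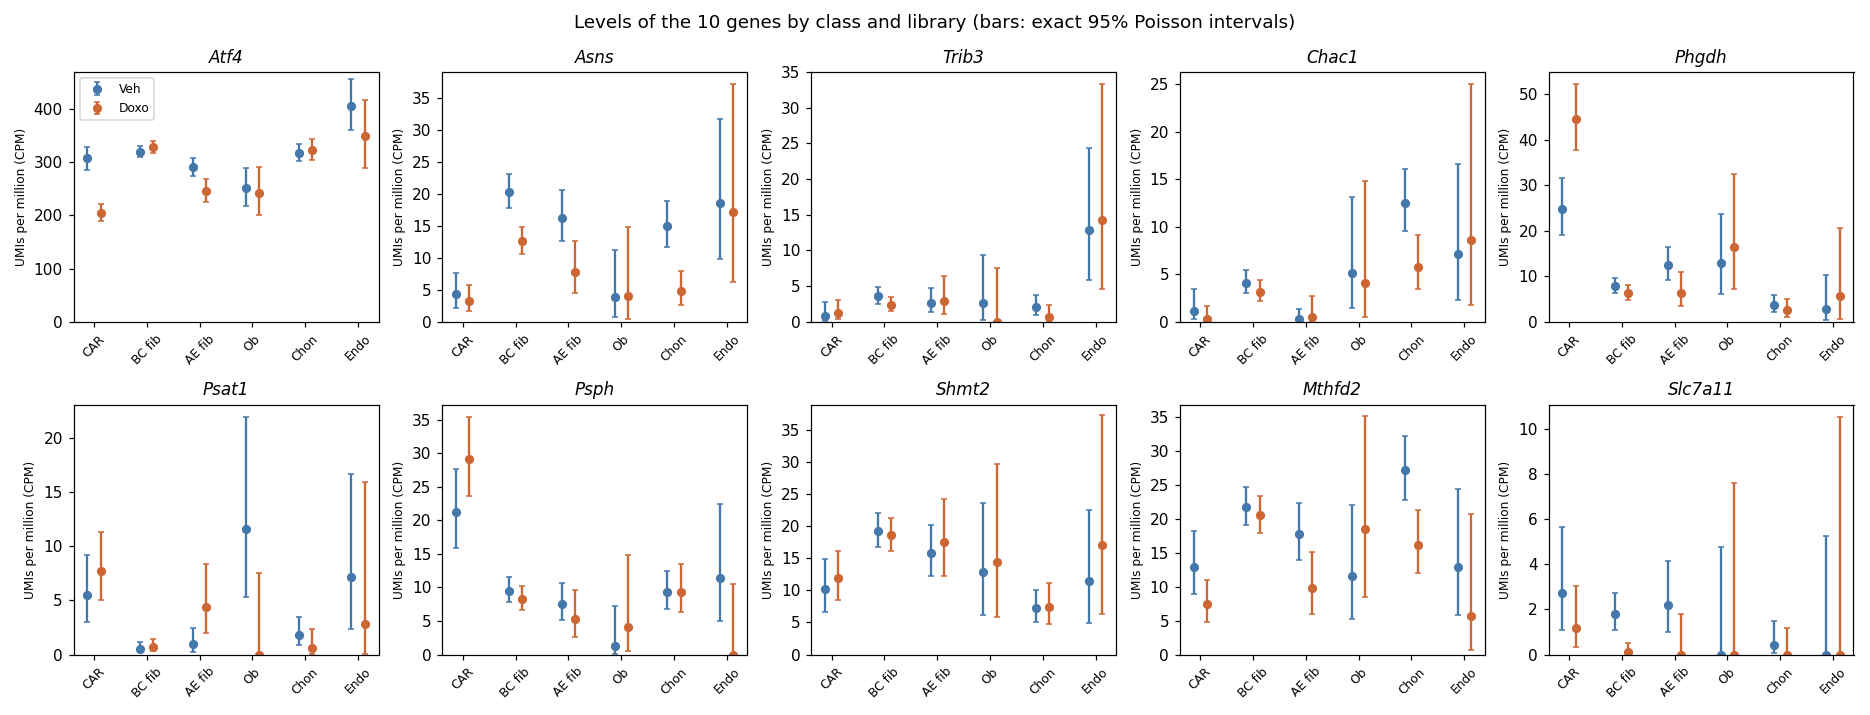
CPM of each gene (y axis, linear, from 0) in the 6 classes (x axis) in Veh (blue) and Doxo (orange), 1 library each, with exact 95% Poisson intervals as bars. Phgdh and Psph are highest in the CAR-like cells, Asns is lower in Doxo in both fibroblast classes and in the chondrocyte-like cells, and the intervals are wide in the osteoblast-like and endothelial-like cells.

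Atf4 (chr15:80255184-80257541, plus strand) was the only one of the 10 genes with at least 20 UMIs in all 6 classes. Its ratio stayed within the 1.5-fold cut in each of them, and the CAR-like cells came closest to it. There Atf4 had 783 UMIs in Veh (307 CPM, interval 286 to 330) and 692 in Doxo (205 CPM, 190 to 221), a log2 ratio of -0.58 with an interval of -0.73 to -0.43. The intervals of the levels do not overlap. This ratio passed the cut in 5 of the alternative settings: with 20 principal components (-0.63), at resolution 0.2 (-0.61), without called doublets (-0.61), after centring on the median of all genes (-0.64) and with each cell thinned to 2000 UMIs (-0.59). In the arteriolar and endosteal fibroblast-like cells the level was 291 CPM in Veh and 246 CPM in Doxo, and the log2 ratio was -0.24 (-0.40 to -0.09).

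In 3 further classes the Atf4 levels of both libraries lay close together. They were 320 and 328 CPM in the bone and cartilage fibroblast-like cells (log2 ratio 0.04, -0.03 to 0.10), 318 and 324 CPM in the chondrocyte-like cells (0.02, -0.09 to 0.14) and 251 and 242 CPM in the osteoblast-like cells (-0.05, -0.39 to 0.29). These intervals all include 0, and all 3 are narrow enough to leave out a 1.5-fold difference in these libraries. The endothelial-like cells had the highest levels, 407 CPM in Veh and 349 CPM in Doxo (-0.22, -0.54 to 0.09). In Veh, the endothelial-like level stood above the others beyond its interval (361 to 457), and the osteoblast-like level was the lowest, with an interval of 217 to 289 that overlaps only that of the CAR-like and arteriolar and endosteal fibroblast-like cells.

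The Atf4 ratio of the CAR-like cells was also read within parts of the class. Clustered alone, the CAR-like cells fell into 3 subclusters. Subcluster 1, with 187 Veh and 335 Doxo cells, stood above the other CAR-like cells in 3 of 8 osteoblast markers (Bglap, Bglap2 and Sp7). All 8 summed to 9875, 8593 and 11316 CPM in subclusters 1, 2 and 3 in Veh, and to 2586, 2337 and 2252 in Doxo. Subcluster 2, with 173 Veh and 77 Doxo cells, stood above the others in 4 haemoglobin genes and had Ccl2, Ccl7, Nr4a3 and Cxcl1 among its leading genes. Its 6 erythroid markers summed to 612 CPM in Veh and 3.30 in Doxo, against 451 and 3.67 in subcluster 1. Subcluster 3, with 11 Veh and 16 Doxo cells, had fibroblast markers. Atf4 was at 222 CPM in Veh and 176 CPM in Doxo in subcluster 1, and at 383 and 303 CPM in subcluster 2. The log2 ratio was -0.33 in both, with intervals of -0.57 to -0.09 and -0.59 to -0.09. Without subcluster 2 the ratio over the other CAR-like cells was -0.28 (-0.49 to -0.06). Over the class, 21 genes known to be induced while cells are dissociated summed to 20995 CPM in Veh and 15829.5 in Doxo, and in Veh to 3626 CPM in subcluster 1 and 35853 CPM in subcluster 2. The part of these genes and of the makeup of the class in the Atf4 difference was not tested. The subclusters were cut from the same expression data as the ratios.

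Among the genes that encode the enzymes of serine synthesis, Phgdh (chr3:98313170-98339990, minus strand) encodes the first, phosphoglycerate dehydrogenase. In the CAR-like cells it had 63 UMIs in Veh (24.7 CPM, 19.0 to 31.6) and 150 in Doxo (44.5 CPM, 37.7 to 52.3). The Doxo level was 1.79-fold higher, a log2 ratio of 0.84 (0.42 to 1.30), and Phgdh was the only one of the 7 genes with at least 20 UMIs in this class that was higher, where 12.9% of all genes were. The ratio lay between 0.72 and 1.24 over 11 other ways of processing the data. The 5 cells with most Phgdh UMIs held 19.0% of them in Veh and 16.0% in Doxo. Thinned to 2000 UMIs each, 3.39% of Veh and 8.39% of Doxo CAR-like cells had a Phgdh UMI (14.0% and 24.3% unthinned, at medians of 6231 and 7317 UMIs), against 1.21% and 1.14% in the bone and cartilage fibroblast-like class (6.79% and 4.42% unthinned, at 9663 and 7285 UMIs). None of the classes is known to lack the gene, so the class with most cells is set beside it.

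Within the CAR-like class, Phgdh passed the cut in subcluster 1. There it had 25 UMIs in Veh (24.2 CPM) and 132 in Doxo (53.8 CPM), a log2 ratio of 1.13 (0.53 to 1.83). Phgdh and Psat1 were the 2 higher genes of 6 with at least 20 UMIs in subcluster 1, where 9.96% of all genes were higher. The Psat1 call rested on 4 and 23 UMIs, and its interval includes 0 (-0.27 to 3.27). Mthfd2 was the 1 lower gene (14 and 21 UMIs, -0.68, -1.71 to 0.43), where 12.2% were lower. The Mthfd2 interval includes 0, and without cells that carried blood cell markers its ratio was -0.48, within the cut. None of the 3 genes with at least 20 UMIs in subcluster 2 passed the cut. In subcluster 1 the immune markers summed to 2827 CPM in Veh and 98.6 in Doxo, and the megakaryocyte markers to 270 and 15.9. Without cells that carried blood cell markers the Phgdh ratio in subcluster 1 was 1.24 (0.60 to 2.01). In subcluster 2 Phgdh had 36 UMIs in Veh and 11 in Doxo, and the log2 ratio of -0.52 has an interval of -1.69 to 0.44 that includes 0. The median depth of the subcluster 1 cells was 4720 UMIs in Veh and 7085 in Doxo. Whether the ratios of the subclusters differ was not tested.

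**Figure D2:**
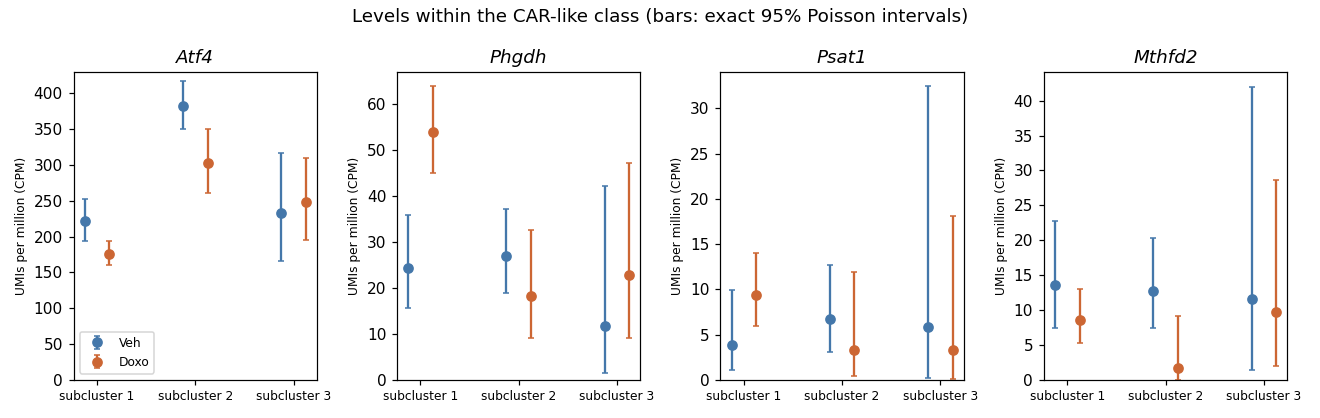
CPM (y axis, linear, from 0) of Atf4, Phgdh, Psat1 and Mthfd2 in the 3 CAR-like subclusters (x axis) in Veh (blue) and Doxo (orange), with exact 95% Poisson intervals as bars. Atf4 is higher in subcluster 2 than in subcluster 1 in each library, and Phgdh is at 24.2 CPM in Veh and 53.8 CPM in Doxo in subcluster 1, while subcluster 3, with 11 and 16 cells, has wide intervals.

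Outside the CAR-like cells Phgdh was not higher in Doxo in any class with at least 20 UMIs. The arteriolar and endosteal fibroblast-like cells had 51 UMIs in Veh (12.4 CPM, 9.24 to 16.3) and 13 in Doxo (6.34 CPM, 3.37 to 10.8), a log2 ratio of -0.93 (-1.97 to -0.07). In the bone and cartilage fibroblast-like cells the levels were 7.83 and 6.29 CPM (-0.31, -0.79 to 0.16), and in the chondrocyte-like cells 3.70 and 2.58 CPM from 18 and 8 UMIs. The osteoblast-like cells had 10 UMIs in Veh (12.9 CPM) and 8 in Doxo (16.4 CPM), and the endothelial-like cells 2 in each. In Veh the CAR-like cells had the highest level, and its interval overlaps only that of the osteoblast-like cells (6.17 to 23.7), while in Doxo it overlaps no other class.

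Psat1 and Psph encode the aminotransferase and the phosphatase that complete the path to serine. Psat1 (chr19:15904678-15947337, minus strand) had 14 UMIs in Veh and 26 in Doxo in the CAR-like cells (5.49 and 7.72 CPM), and the log2 ratio of 0.47 has an interval of -0.50 to 1.54. With each cell thinned to 2000 UMIs that ratio was -2.11, so these counts give no direction. In subcluster 1 the counts were 4 and 23, which passes the 1.5-fold rule at 1.14 with an interval that includes 0 (-0.27 to 3.27). The 5 cells with most Psat1 UMIs held 56.5% of those in Doxo there. Thinned to 2000 UMIs each, 1.17% of Veh and 0.308% of Doxo cells of subcluster 1 had a Psat1 UMI, so no direction is given there either. The arteriolar and endosteal fibroblast-like cells had 4 UMIs in Veh and 9 in Doxo (log2 ratio 2.08, 0.33 to 4.32), under the 20 UMIs that the rule asks for. The osteoblast-like cells had 9 in Veh and 0 in Doxo, with an upper end of -0.31 for the log2 ratio, and at a finer clustering, with 212 Veh and 134 Doxo cells in the class, the log2 ratio was -0.22.

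Psph (chr5:129765558-129787449, minus strand) also had its highest level in the CAR-like cells, 21.2 CPM in Veh (15.9 to 27.6) and 29.1 CPM in Doxo (23.6 to 35.5). The log2 ratio there was 0.45 (-0.04 to 0.96), within the cut. Among the classes with at least 20 Psph UMIs the level was 9.52 and 8.33 CPM in the bone and cartilage fibroblast-like class, 7.54 and 5.36 CPM in the arteriolar and endosteal fibroblast-like cells, and 9.26 and 9.36 CPM in the chondrocyte-like cells. None of these 3 intervals overlaps that of the CAR-like cells in the same library, and none of their ratios passed the cut. The endothelial-like cells had 8 UMIs in Veh and 0 in Doxo, and the interval of the log2 ratio reaches 0.23 and so includes 0.

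SHMT2 and MTHFD2 act in mitochondria, where the former splits serine to glycine and a one-carbon unit and the latter oxidises that unit on folate. Shmt2 (chr10:127517123-127522444, minus strand) had no ratio past the cut in the 4 classes with at least 20 UMIs. Its levels were 10.2 and 11.9 CPM in the CAR-like cells (log2 ratio 0.21, -0.53 to 0.99), 19.3 and 18.6 CPM in the bone and cartilage fibroblast-like cells (-0.05, -0.34 to 0.23), 15.8 and 17.5 CPM in the arteriolar and endosteal fibroblast-like cells (0.16, -0.48 to 0.76) and 7.20 and 7.42 CPM in the chondrocyte-like cells (0.05, -0.78 to 0.84). All 4 intervals include 0, and the narrowest, in the class with most cells, leaves out a 1.5-fold difference.

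Mthfd2 (chr6:83305691-83325908, minus strand) was lower in Doxo in 3 classes. The CAR-like cells had 33 UMIs in Veh and 25 in Doxo (13.0 and 7.42 CPM), a log2 ratio of -0.80 (-1.61 to -0.01), and Mthfd2 was the 1 gene of 7 that was lower there, where 9.89% of all genes were. The arteriolar and endosteal fibroblast-like cells had 73 and 20 UMIs (17.8 and 9.75 CPM, -0.84, -1.66 to -0.14), and the chondrocyte-like cells 132 and 50 UMIs (27.2 and 16.1 CPM, -0.74, -1.25 to -0.27). The bone and cartilage fibroblast-like cells, the class with most UMIs, had levels of 21.8 and 20.5 CPM and a ratio of -0.09 (-0.35 to 0.18). The CAR-like ratio was -0.53 and the chondrocyte-like ratio -0.35 with each cell thinned to 2000 UMIs, which puts both within the cut. Without cells that carried blood cell markers the CAR-like interval included 0 (-0.73, -1.56 to 0.08).

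Asns encodes asparagine synthetase and is a standard readout of the amino acid response. It was lower in Doxo in the 3 classes where it had most UMIs. The bone and cartilage fibroblast-like cells had 229 Asns UMIs in Veh (20.4 CPM, 17.8 to 23.2) and 136 in Doxo (12.6 CPM, 10.6 to 14.9), a log2 ratio of -0.69 (-1.01 to -0.38). The intervals of the levels do not overlap. Asns and Slc7a11 were the 2 genes of 9 that were lower in this class, where 9.38% of all genes were, and none was higher, where 4.17% were.

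In the arteriolar and endosteal fibroblast-like cells Asns had 67 UMIs in Veh (16.3 CPM) and 16 in Doxo (7.80 CPM), a log2 ratio of -1.03 (-1.95 to -0.26). With Phgdh and Mthfd2 it made 3 lower genes of 6, where 9.35% of all genes were lower, and none of the 6 was higher, where 7.07% were. The chondrocyte-like cells had 73 UMIs in Veh (15.0 CPM, 11.8 to 18.9) and 15 in Doxo (4.84 CPM, 2.71 to 7.98), which was the widest gap for Asns, a log2 ratio of -1.60 (-2.54 to -0.82). Asns, Chac1 and Mthfd2 were the 3 lower genes of 7 there, where 11.5% of all genes were lower and 14.8% higher. Over the alternative settings the ratio of Asns lay between -0.70 and -0.60 in the first fibroblast class, -1.34 and -0.88 in the second, and -1.73 and -1.56 in the chondrocyte-like cells.

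The CAR-like cells had 11 Asns UMIs in each library (4.32 and 3.27 CPM), and the interval of the log2 ratio, -1.75 to 0.94, is too wide to show a difference of the size seen in the other classes or to leave one out. Their Veh level (2.15 to 7.72) lay below those of both fibroblast classes and the chondrocyte-like cells, with no overlap. The endothelial-like cells had 13 and 6 UMIs (18.5 and 17.1 CPM) and the osteoblast-like cells 3 and 2.

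**Figure D3:**
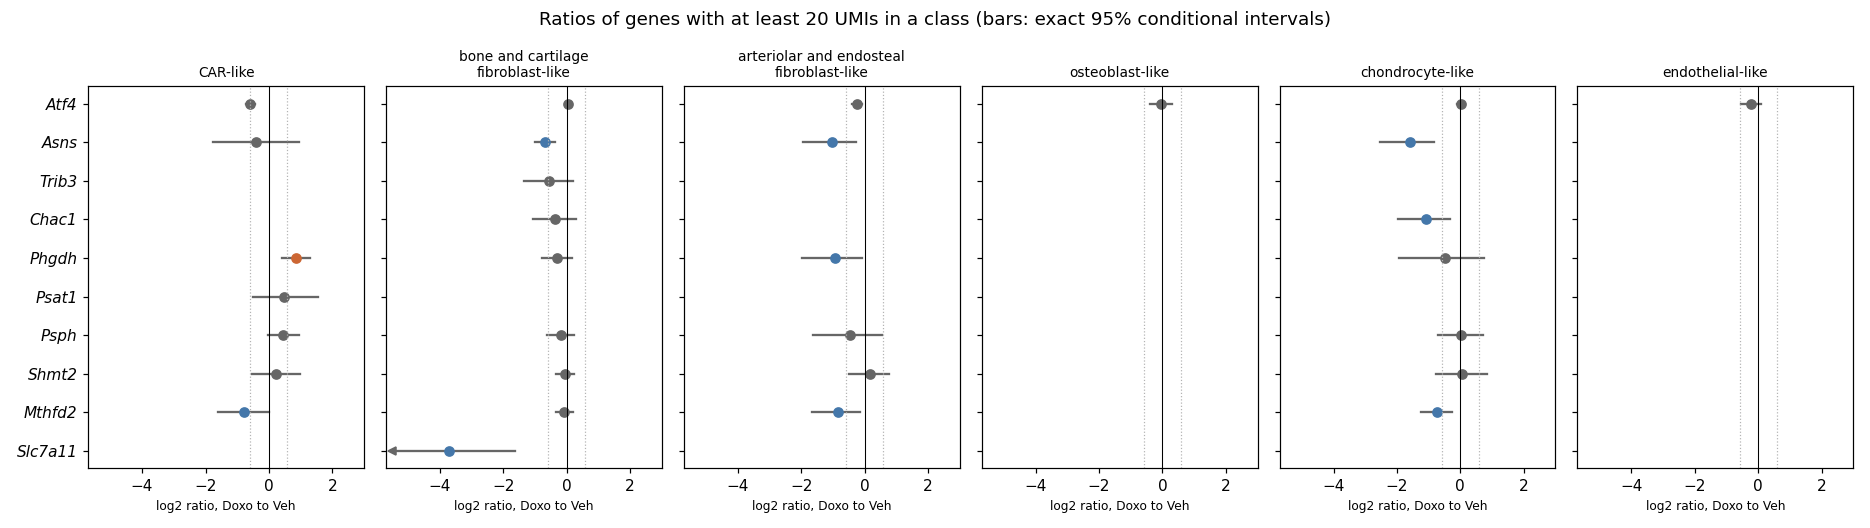
Log2 ratio of Doxo to Veh (x axis) of each gene with at least 20 UMIs in a class, 1 panel per class, with exact 95% conditional intervals as bars, an arrow where an interval runs off the axis, and dotted lines at 1.5-fold. Blue points are lower and orange points higher by at least 1.5-fold, so that Phgdh in the CAR-like cells is the only orange point and Asns is blue in 3 panels.

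Trib3 and Chac1 encode a pseudokinase and a glutathione-degrading enzyme, both known as targets of ATF4 in stress of the endoplasmic reticulum. Trib3 (chr2:152337422-152344032, minus strand) reached 20 UMIs only in the bone and cartilage fibroblast-like cells, with 40 in Veh and 26 in Doxo (3.56 and 2.41 CPM, -0.56, -1.34 to 0.18). Its Veh level in the endothelial-like cells, 12.8 CPM from 9 UMIs, had an interval of 5.87 to 24.4, which lies above that of the chondrocyte-like cells (0.987 to 3.78) and that of the first fibroblast class (2.54 to 4.84).

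Chac1 (chr2:119351229-119354381, plus strand) was lower in Doxo in the chondrocyte-like cells, with 61 UMIs in Veh (12.5 CPM) and 18 in Doxo (5.81 CPM), a log2 ratio of -1.08 (-1.96 to -0.33). Few cells carried these UMIs, as 29 of 247 Veh and 9 of 204 Doxo cells had any and the 5 cells with most held 36.1% and 77.8% of them. With each cell thinned to 2000 UMIs the ratio was -0.22. Chac1 had 46 and 34 UMIs in the bone and cartilage fibroblast-like class (-0.37, -1.06 to 0.29), while in the CAR-like cells it had 3 and 1.

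Slc7a11 (chr3:49892526-50443614, minus strand) encodes the cystine importer of the cystine-glutamate exchanger. It had 38 UMIs in Veh and 5 in Doxo over all cells (1.53 and 0.240 CPM), a log2 ratio of -2.55 (-4.37 to -1.32). Its count in the bone and cartilage fibroblast-like cells was 20 in Veh against 1 in Doxo (log2 ratio -3.72, -9.64 to -1.62). The Veh UMIs lay in 11 of 1105 cells, and the 5 cells with most held 70.0% of them. Of the 20, 9 were in cells that carried at least 10 UMIs of immune, megakaryocyte or erythroid markers, of which this class had 13 in Veh and 5 in Doxo. Without these cells the counts were 11 and 1 (-2.91, -8.85 to -0.64), under the 20 UMIs of the rule. The arteriolar and endosteal fibroblast-like cells had 9 UMIs in Veh, 6 of them in such cells, and 0 in Doxo, and in the CAR-like cells all 7 Veh UMIs were in 1 cell.

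Over all deposited cells, Asns, Chac1 and Slc7a11 were the 3 lower genes of 10 and none was higher, where 9.62% and 6.63% of all genes were. Asns had 406 UMIs in Veh and 196 in Doxo (16.3 and 9.43 CPM, log2 ratio -0.79, -1.05 to -0.54). Phgdh, higher in 1 class and lower in another, had 234 and 254 (9.41 and 12.2 CPM, 0.38, 0.11 to 0.64). The median log2 ratio of the genes with at least 20 UMIs was 0.21 in the CAR-like cells, where the median of all genes was 0.06, -0.31 against -0.09 in the bone and cartilage fibroblast-like class, -0.65 against -0.01 in the arteriolar and endosteal fibroblast-like cells, and -0.47 against 0.05 in the chondrocyte-like cells. In the osteoblast-like and endothelial-like cells only Atf4 could be read, where 12.8% and 14.5% of all genes were higher and 18.6% and 10.5% lower.

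A list of 71 other genes of the pathway was read in the same way, from the kinases of eIF2 to the transfer RNA synthetases. In the bone and cartilage fibroblast-like cells 1 was higher and 1 lower of 68 with at least 20 UMIs, where 4.17% and 9.38% of all genes were. The arteriolar and endosteal fibroblast-like cells had 3 and 5 of 64 (all genes 7.07% and 9.35%). The osteoblast-like cells had 4 and 12 of 41 (12.8% and 18.6%), and the endothelial-like cells 4 and 7 of 41 (14.5% and 10.5%). The CAR-like cells had 3 higher and 10 lower of 62 (12.9% and 9.89%), and the chondrocyte-like cells 8 and 10 of 61 (14.8% and 11.5%). The counts are to be read against these shares of all genes.

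Of the 10 lower pathway genes of the CAR-like cells 6 were stress response factors. They came from a list of 11 with at least 20 UMIs whose median was -0.65, where 9.89% of all genes were lower. In subcluster 1, 2 of 11 were lower and 1 higher, where 12.2% of all genes were lower and 9.96% higher, and the median was -0.25 against -0.05 for all genes. In subcluster 2, which held 173 Veh and 77 Doxo cells, 5 of 10 were lower and none higher, where 12.7% and 14.5% of all genes were, and the median was -0.55. The list summed to 2269 and 1294 CPM in Veh and Doxo over the class, 1132 and 1048 CPM in subcluster 1, and 3252 and 1798 CPM in subcluster 2. Gdf15, a stress-induced secreted factor, was at 72.6 CPM in Veh and 19.6 CPM in Doxo (log2 ratio -1.88, -2.32 to -1.48). Cebpb, which encodes a partner of ATF4, was at 992 and 326 CPM (-1.60), and Atf3, a related factor that is also induced by dissociation, was at 315 and 103 CPM (-1.61). Ppp1r15b, which encodes a subunit of the eIF2 phosphatase, was at 107 and 41.9 CPM (-1.35). In the same class 12 of 21 dissociation-induced genes, which include Atf3, were lower and none higher, where 9.89% of all genes were lower and 12.9% higher. The part of the dissociation-induced genes in these differences was not tested. The one-carbon, glycine and proline enzymes had a median of 0.53 over the 8 with at least 20 UMIs. Of these 8, 2 were higher, where 12.9% of all genes were. One of them was Tyms, the thymidylate synthase gene, at 10.2 and 19.0 CPM (0.88, 0.22 to 1.61). Sars, the cytosolic seryl-tRNA synthetase gene, was at 42.0 and 68.0 CPM (0.69, 0.36 to 1.04), while none of 11 amino acid transporters passed the cut.

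In the chondrocyte-like cells 8 of 61 pathway genes were higher and 10 lower, where 14.8% of all genes were higher and 11.5% lower. Ddit3, which encodes the stress factor CHOP, had 74 UMIs in Veh (15.2 CPM) and 213 in Doxo (68.7 CPM), a log2 ratio of 2.17 (1.79 to 2.58). Atf3 (631 and 1419 CPM, 1.17), the amino acid transporter gene Slc38a2 (266 and 587 CPM, 1.14) and Stc2, which encodes a secreted glycoprotein (89.1 and 158 CPM, 0.82), were higher as well. Lower were Iars, the isoleucyl-tRNA synthetase gene (18.7 and 7.42 CPM, -1.31), Nupr1, a stress-induced nuclear protein gene (377 and 153 CPM, -1.30), the transporter gene Slc1a4 (11.3 and 4.52 CPM, -1.29) and Eif4ebp1, which encodes a translation repressor (21.2 and 10.6 CPM, -0.98). Ddit3 and Atf3 were thus higher in the class where Asns, Chac1 and Mthfd2 were lower. The dissociation-induced genes summed to 18887.5 CPM in Veh and 35821 CPM in Doxo here, with 13 of 21 higher and 2 lower, and their part was not tested.

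The bone and cartilage fibroblast-like cells had none of 18 cytosolic aminoacyl-tRNA synthetase genes past the cut in either direction, although 17 of them had a ratio at or below 0 and their median was -0.25 against -0.09 for all genes. Slc43a1, an amino acid transporter gene, was at 3.20 and 1.94 CPM there (-0.71, -1.57 to 0.09). In the arteriolar and endosteal fibroblast-like cells the factor gene Atf5 (212 and 137 CPM, -0.62), Ppp1r15b (-0.70) and Yars, the tyrosyl-tRNA synthetase gene (-0.74), were lower. In the first of these classes 6 of 21 dissociation-induced genes were higher, where 4.17% of all genes were higher and 9.38% lower. In the second 4 of 21 were higher, where 7.07% of all genes were higher and 9.35% lower. None of the 21 was lower in either class.

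In the osteoblast-like cells Pck2, the gene of mitochondrial phosphoenolpyruvate carboxykinase, was at 86.3 and 134 CPM (0.63, 0.12 to 1.14). Lower there were Ppp1r15a, which encodes the inducible subunit of the eIF2 phosphatase (145 and 69.8 CPM, -1.04), Atf3 (578 and 292 CPM, -0.98), and the synthetase genes Lars (-0.65) and Eprs (-0.60). Of 21 dissociation-induced genes 8 were lower and none higher, where 18.6% of all genes were lower and 12.8% higher. The endothelial-like cells had Gclc, which encodes a glutathione-synthesis enzyme, higher (0.74, -0.09 to 1.55), and the stress gene Ddit4 (217 and 134 CPM, -0.68) and Lars (-0.62) lower.

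**Figure D4:**
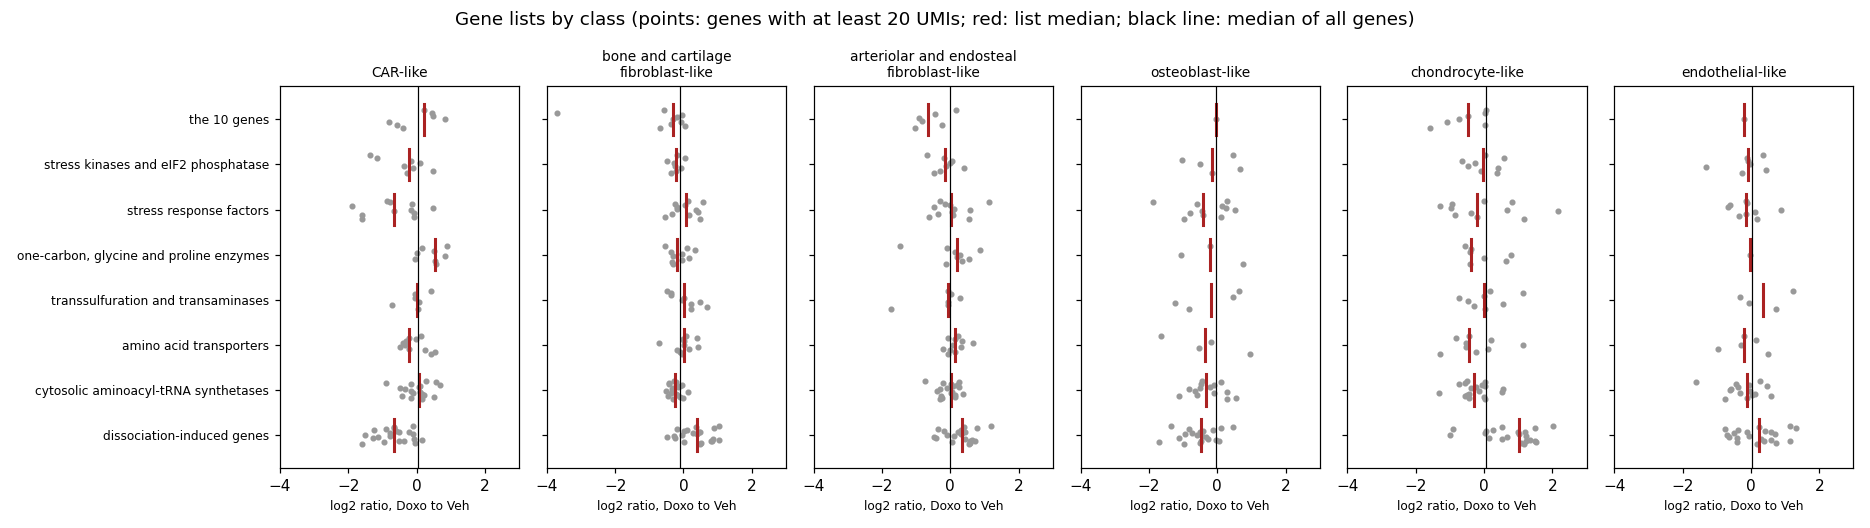
Log2 ratio of Doxo to Veh (x axis) of each gene with at least 20 UMIs (grey points) in the 10 genes, the 6 pathway lists and the dissociation-induced genes, 1 panel per class, with the list median in red and the median of all genes as a black line. The stress response factors and the dissociation-induced genes have medians of -0.65 and -0.66 in the CAR-like cells, and the dissociation-induced genes a median of 1.01 in the chondrocyte-like cells.

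How the levels of the 10 genes went together across the classes was described by correlation. Over the 12 sums of 6 classes in 2 libraries, 22 of their 45 pairs had a Pearson correlation of log2(CPM + 1) above 0 and 6 above 0.5, with a median of -0.01. Asns went with Trib3 (0.72) and with Atf4 (0.71), and Atf4 and Phgdh ran most against each other (-0.74). Among 7950 genes compared, the 3 most like Atf4 were Skil (0.90), Kdm6b (0.90) and Stk40 (0.88), the 3 most like Asns were Gprc5a (0.93), Dst (0.91) and Gch1 (0.89), and the 3 most like Phgdh were Ssr3 (0.96), Plac8 (0.95) and Tnc (0.94). The 12 sums share libraries and differ in depth, and the correlations are descriptions of these sums.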

How the data were processed

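Per the submitters' processing notes and the study's methods, reads were aligned to GRCm38 with Cell Ranger (version not given in the sources used here), cells and genes were filtered, and Partek is also named. The deposited tables hold log2 values. That they were scaled within each cell and put on a log scale in 2 successive rounds was inferred from the values. The sources used here do not describe these steps. The scaling was inverted to whole UMIs in each cell; 99.9% of nonzero values up to 50 UMIs came out whole within 0.05, and the 27 symbols that did not include none of the 10 genes. In 60 simulated cells of 6000 genes, scaled in the same 2 rounds, 100% of UMIs were recovered, which does not test the inference.

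Libraries were merged in Seurat 5.3.0 (R 4.3.3) and clustered on 35 principal components at resolution 0.1, and again without endothelial-like clusters. Names were given by markers that at least 10% of a cluster's cells held and that stood at least 1 log2 unit above other cells, and a name needed at least 3 of them. CAR-like subclusters were found at a resolution of 0.2. No doublets were removed: Scrublet in scanpy 1.11.5 called 10 Veh cells (0.402%) and 2 Doxo cells (0.0804%), so it says little. The libraries share 4 barcodes.

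Ratios had 0.5 UMI added to each sum and exact conditional binomial 95% intervals; levels had exact Poisson intervals and shares exact binomial ones. Median depth was 8693 UMIs per cell in Veh and 7347.5 in Doxo. Pathway genes are named where they had at least 50 UMIs in a class and a ratio of at least 1.5-fold, up to 4 in each direction (1 such gene is not reported here), and genes most like Atf4, Asns and Phgdh were taken from those with at least 500 UMIs. The genes, lists, markers and rules were chosen with earlier results of these data known. Coordinates are from GENCODE M21 (the authors' release is not given in the sources used here) and promoters from RefSeq. Psph overlaps Cct6a, Shmt2 overlaps Ndufa4l2 and Psat1 overlaps the pseudogene Gm3329, each on the opposite strand. Mthfd2 overlaps Gm43890 on its own strand, and Phgdh has a pseudogene. Slc7a11 overlaps the pseudogene Gm37692 and Gm37498 on its own strand, and Gm37854, Gm37826 and Gm2345 on the opposite strand. The counts of these genes are less certain. No column was left out.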

Additional observations from a re-analysis of the deposited data

Results flagged for a closer look

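Phgdh had log2 ratios of Doxo to Veh on opposite sides of 0 in 2 classes, 0.84 in the CAR-like cells (63 UMIs in Veh and 150 in Doxo) and -0.93 in the arteriolar and endosteal fibroblast-like cells (51 and 13), with intervals of 0.42 to 1.30 and -1.97 to -0.07. Each class was compared within the same pair of libraries, and with 1 library per condition the difference between the classes was not tested. Without cells that carried blood cell markers the ratios were 0.87 and -0.90.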

How the results depend on the processing

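No paired analysis was possible because each condition has 1 library and the labels give no replicate numbers. Of 158 recomputed counts of higher or lower genes 133 were within 1.5 times the reported count, and of 590 ratios 580 stayed inside the interval of the reported one, while none whose interval left out 0 changed sign. The ratios include those of genes with few UMIs, whose wide intervals few values could leave, and several reported counts were 0. All settings reuse the same libraries, so this agreement does not measure how repeatable the ratios are. In the CAR-like cells the count of higher genes (1) was 2 under a stricter cell filter (at least 1000 genes, at most 5% mitochondrial UMIs), 2 without subcluster 2 and 0 at a cut of 2-fold. The count of lower genes there (1) was 2 with 20 principal components, at resolution 0.2, without called doublets and after centring on the median of all genes, where Atf4 passed the cut, and 2 when intervals beside 0 were counted in place of the fold. It was 0 at 2-fold and 3 with at least 1 UMI, and in thinned cells it stayed 1 with Atf4 (-0.59) in place of Mthfd2 (-0.53). In the bone and cartilage fibroblast-like cells the count of lower genes (2) was 1 under the stricter filter, with 20 components, at resolution 0.2, in thinned cells, at 2-fold and without cells carrying blood cell markers. In the arteriolar and endosteal fibroblast-like cells lower genes (3) fell to 1 at 2-fold, and higher genes (0) were 2 with at least 1 UMI. Osteoblast-like higher genes (0) were 3 at resolution 0.2 and 2 with at least 1 UMI, and lower genes (0) were 2 with at least 1 UMI. Chondrocyte-like lower genes (3) were 0 in thinned cells, where fewer UMIs are left, and 6 with at least 1 UMI. Endothelial-like higher and lower genes (0 and 0) were 2 and 3 with at least 1 UMI. The count by intervals and the one without cells carrying blood cell markers were chosen after seeing the data. Depth limits the osteoblast-like and endothelial-like cells most, where 3 UMIs are 6.16 and 8.57 CPM in Doxo.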

Other observations

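The 21 dissociation-induced genes were lower in Doxo over the CAR-like class but not within its larger subclusters. Their median log2 ratio was -0.66 over the class, against 0.06 for all genes. There 12 were lower and 0 higher, where 9.89% of all genes were lower and 12.9% higher. The median was 0.57 in subcluster 1, with 10 higher and 1 lower, where the median of all genes was -0.05 and 9.96% of all genes were higher and 12.2% lower. In subcluster 2 it was 0.01, with 7 higher and 3 lower, where the median of all genes was 0.03 and 14.5% were higher and 12.7% lower. The clusters were found with these genes among those clustered, and subcluster 2, where they summed to 35853 CPM in Veh and 47607 CPM in Doxo, held 173 Veh and 77 Doxo cells.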
